A study of Coprinopsis cinerea with 4 samples.

Results

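The genes described here kept nearly the same place in the order of transcript counts in hyphae and in oidia of the mushroom Coprinopsis cinerea. They numbered 107 of 13342 gene rows. Genes were ranked by raw read count within each of the 4 libraries, with 1 the highest and ties averaged. A gene was taken when its mean rank was 3000 or better, when its largest and smallest ranks lay at most 150 apart (the rank spread), and when it was not ranked 300 or better in all 4 libraries. The choice therefore used the counts of every library, and each rank, count and stage difference of these genes below is a description of the selected genes and not a test.

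Hyphae are the filaments by which the mycelium grows, and oidia are asexual spores of a single cell that the mycelium sheds. Hyphae and oidia had 2 libraries each, all of poly(A)-selected RNA from strain okayama7#130, and the labels name no agent or allele. Hyphae libraries were made with an Illumina kit and oidia libraries with a SOLiD kit, so in every stage difference below the stage and the kit cannot be told apart. Nothing in the labels says that the 2 libraries of a stage came from separate cultures, so their spread may be technical. In such bulk RNA, fewer cells and less RNA per cell cannot be told apart either.

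Rank and level are separate properties of a transcript. A rank says how many other transcripts are more abundant in the same library, whereas a level depends on the total to which the library is scaled. Genes whose place in the order hardly moves between cell types are often looked for as reference genes in expression work. Fungal spores carry a store of transcripts into germination, while hyphae transcribe for growth, so a comparison of the 2 cell types is a wide one for such a search. Genes are named by locus identifier, because no product names came with the files. Levels of different genes in raw reads also depend on transcript length, which the ranks did not correct for.

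The hyphae libraries held 4586306 and 3546635 gene reads, and the oidia libraries held 7519091 and 6128727. After scaling by the trimmed mean of M values (TMM), a method that balances the bulk of the genes, the library sizes were 7852755 and 6038702 in hyphae and 4426108 and 3552426 in oidia. Scaled counts (CPM) below are read counts relative to these scaled sizes, on the usual counts-per-million basis. Read counts of the 107 genes ran from 288 to 3450 in hyphae replicate 1, 226 to 2608 in hyphae replicate 2, 188 to 3737 in oidia replicate 1 and 145 to 2821 in oidia replicate 2. Together they took 2.60% ± 0.0143 of gene reads in hyphae and 1.74% ± 0.0185 in oidia (SD, n = 2 each).

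The limit of 150 ranks can be read against the differences between replicates. Among the 2682 genes with a mean rank of 3000 or better, the replicates of hyphae lay within 150 ranks for 2009 genes (74.9%) and those of oidia for 1982 (73.9%). Replicates of both stages did so for 1472 genes (54.9%), and all 4 libraries for 171 (6.38%). Of these 171, 64 were ranked 300 or better in every library and 107 form the group described here. The median difference in rank between hyphae replicates was 38.0 in the rank-stable genes and 74.5 in the 2478 other genes of the same rank span that were not in the top 300 throughout. Between oidia replicates these medians were 33.0 and 72.0.

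The stable genes were spread unevenly over the order. They made up 4.85% of the 165 genes with a mean rank up to 300, where genes ranked 300 or better in all 4 libraries are left out by the rule. They were 17.5% of the 97 genes with a mean rank above 300 and up to 500, 10.7% of the 394 genes up to 1000, 4.30% of the 465 genes up to 1500, and 0.949% of the 527 genes above 2500 and up to 3000. The rank limit was fixed while replicate differences were not. The median rank difference between hyphae replicates was 12.5 in the bin up to 500 and 131 in the bin above 2500, where it came close to the limit. In oidia the same medians were 20 and 130.5 ranks. The median difference in mean rank between the stages was larger, at 307 ranks in the bin above 300 and up to 500. It was 1591 ranks in the bin above 2500. From the bin above 300 onwards the share fell while replicate and stage differences both grew, and the part of either was not tested.

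CC1G_05170 had the narrowest spread, 17.5 ranks. It ranked 1243 and 1253.5 in hyphae and 1260.5 and 1248 in oidia, with read counts of 687 and 529 in hyphae and of 614 and 498 in oidia. Its ranks overlapped between stages, but its scaled counts did not, at 87.5 ± 0.0823 CPM in hyphae and 139 ± 1.03 CPM in oidia (SD, n = 2 each). CC1G_14381 followed with a spread of 25 ranks, at 589.5 and 571 in hyphae and 591.5 and 596 in oidia. CC1G_03857 spanned 30 ranks, at 624.5 and 636.5 in hyphae and 631 and 606.5 in oidia. In CC1G_14381 both oidia ranks were slightly worse than both hyphae ranks, whereas in CC1G_03857 the ranks of the stages overlapped. CC1G_14872, CC1G_02026 and CC1G_06961 spanned 30.5, 33.0 and 36.0 ranks. CC1G_02026 ranked 541 and 534 in hyphae and 518.5 and 508 in oidia, better in both oidia libraries.

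Over all 107 genes the median spread was 100 ranks. The mean rank was better in hyphae for 64 genes and better in oidia for 43. Ranks of the stages overlapped for 53 genes. They did not overlap for 29 genes that ranked better in hyphae, a pattern that 42.6% of all genes with a read showed, and for 25 that ranked better in oidia (39.2% of all genes with a read). In 66 genes the stage difference in mean rank was no larger than the larger of the 2 replicate differences. The small stage difference itself was a condition of the choice.

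**Figure D1:**
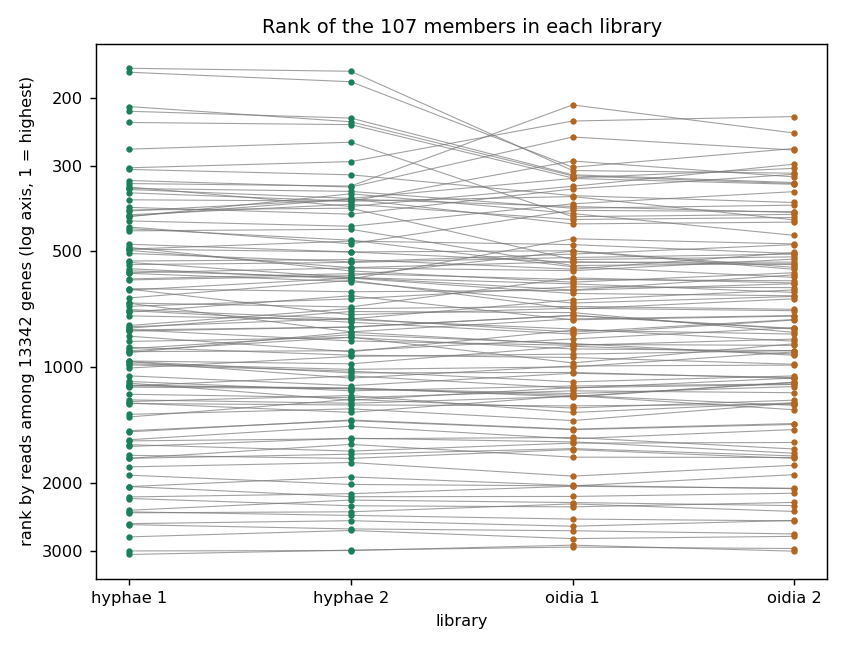
Rank of each of the 107 rank-stable genes (1 point per gene, joined by a line) in the hyphae libraries (green) and the oidia libraries (brown), on a log axis with the highest count at the top. Lines run nearly level from 500 downwards, and the few steep ones above rank 300 belong to genes such as CC1G_02249, ranked 167 and 170 in hyphae and 308 and 313 in oidia.

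At the edge of the rank limit, CC1G_09929 (spread 150), CC1G_01040 (147.5) and CC1G_14998 (147) were just inside. CC1G_05231, CC1G_03355 and CC1G_12090, with spreads of 152, 152.5 and 153.5, were just outside. CC1G_09929 had read counts of 503 and 392 in hyphae and of 356 and 311 in oidia, and CC1G_05231 had 522 and 400 in hyphae and 463 and 338 in oidia. At the other limit, CC1G_00346 and CC1G_00160 had mean ranks of 2989 and 2978. The next genes with a spread within 150 were CC1G_00513 and CC1G_02791, at mean ranks of 3158 and 3841.

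The best-placed members stood just below the most abundant transcripts. CC1G_08808 had read counts of 3367 and 2452 in hyphae and of 2783 and 2393 in oidia, and CC1G_02249 had 3450 and 2608 in hyphae and 2754 and 2191 in oidia. Both ranked higher in hyphae (171 and 181 for CC1G_08808) than in oidia (302 and 270). CC1G_00228 had the same lean, with ranks of 216 and 225 in hyphae and 316 and 331 in oidia. CC1G_02940 had the opposite one, with read counts of 2049 and 1625 in hyphae and of 3465 and 2821 in oidia, and ranks of 303 and 292 in hyphae against 229 and 223 in oidia. In each of these 4 genes the ranks of the stages did not overlap.

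Equal rank did not mean equal level. A transcript at rank 300 had 264 and 262 CPM in hyphae against 629 and 637 CPM in oidia. At rank 1000 the levels were 105 and 106 CPM in hyphae and 181 and 181 CPM in oidia. At rank 3000 they were nearly equal, at 37.7 and 37.4 CPM in hyphae and 41.1 and 41.1 CPM in oidia. The log2 ratio of hyphae over oidia at equal rank was -1.27 at rank 300, -0.78 at rank 1000, -0.39 at rank 2000 and -0.13 at rank 3000. In raw reads the curves of the stage means crossed at rank 949, and in TMM-scaled counts at rank 3499, beyond the rank limit. TMM-scaled levels of the oidia libraries were thus higher at each of the ranks listed. With scaling by total gene reads hyphae were higher at each of them, and the log2 ratio was 0.28 at rank 300, 0.77 at rank 1000, 1.15 at rank 2000 and 1.42 at rank 3000.

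**Figure D2:**
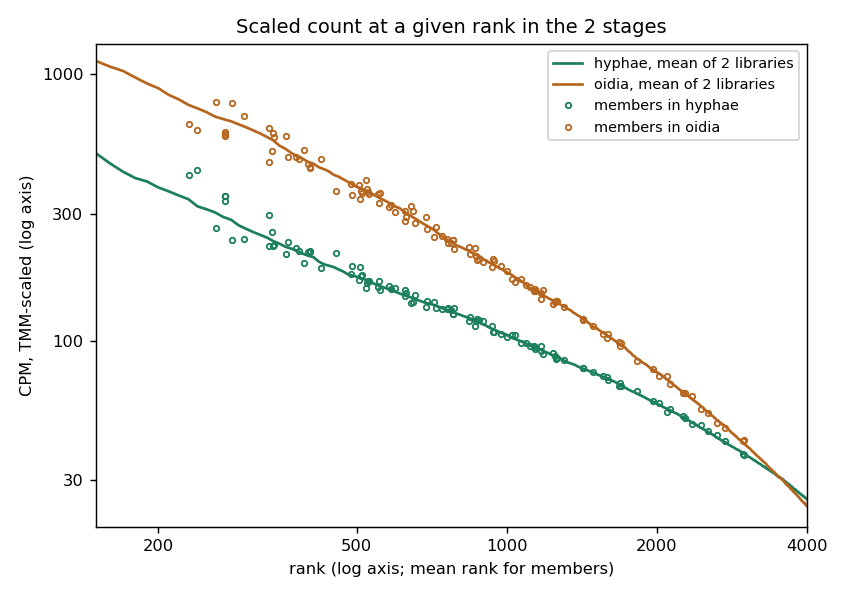
Scaled count (CPM, log axis) at each rank (log axis) for the mean of the 2 hyphae libraries (green line) and of the 2 oidia libraries (brown line), with the 107 genes at their mean rank (open circles, stage means). The lines stand apart at rank 300, where hyphae had 264 and 262 CPM and oidia 629 and 637 CPM, and come together near rank 3000.

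The stage differences of the rank-stable genes followed this curve. Their log2 fold changes (hyphae over oidia, from a fit across all genes) ran from -1.71 to -0.15, with a median of -0.82. Scaled counts of both hyphae libraries lay below those of both oidia libraries in all 107 genes, a pattern found in 34.0% of all genes with a read. In 95 of the 107 genes the log2 fold change lay within 0.25 of the ratio of the stages at the gene's own mean rank, and in 3 it lay over 0.5 away. By rank, the median log2 fold change was -1.10 in the 25 genes up to mean rank 500, -0.92 in the 42 genes up to 1000, -0.70 in the 20 genes up to 1500 and -0.35 in the 20 genes up to 3000. Both the curve and the fold changes come from the counts that chose the genes, so their closeness follows from the rule.

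In edgeR's quasi-likelihood test, with an adjusted p under 0.05 (Benjamini-Hochberg, over all tested genes) as the threshold, 102 of the 107 genes were called lower in hyphae and 0 higher. Of all 9866 tested genes, 37.8% were called lower and 45.2% higher. DESeq2's Wald test called 100 lower and 0 higher, where 34.5% and 35.2% of all tested genes were called. The rule used this contrast, so the counts are not set against these shares. The 5 genes that were not called were CC1G_02939, CC1G_07056, CC1G_14967, CC1G_00160 and CC1G_00346, all with mean ranks of 2450 or worse. CC1G_07056 had read counts of 353 and 263 in hyphae and of 222 and 171 in oidia, with 44.3 ± 0.990 CPM in hyphae and 49.1 ± 1.43 CPM in oidia (SD, n = 2 each). Its log2 fold change was -0.15 with a standard error (SE) of 0.11. Those of the other 4 lay between -0.19 and -0.15. Of the 107 genes, 99 had an adjusted p under 0.05 in the authors' deposited table, against 55.1% of the 12861 genes with a value, a share from which nothing is read for the same reason.

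**Figure D3:**
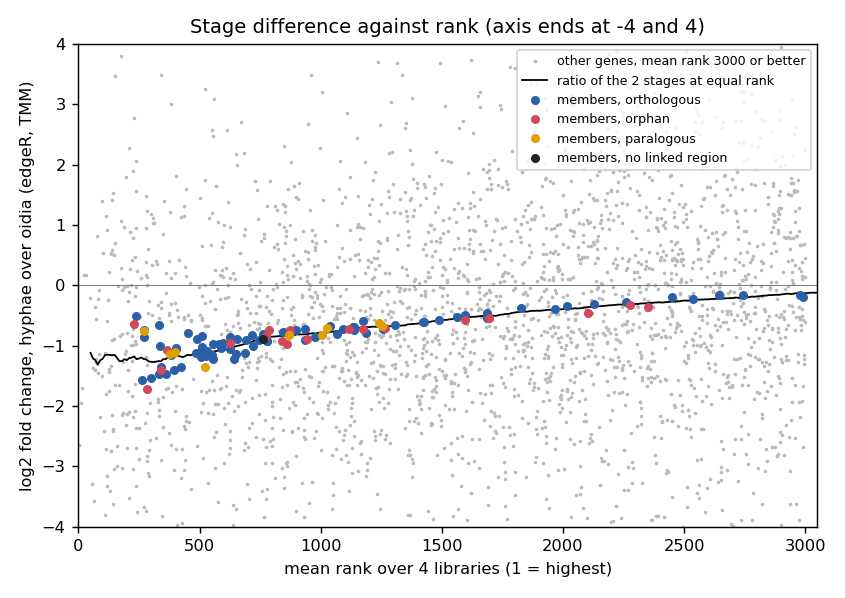
Log2 fold change (hyphae over oidia, edgeR with TMM) against mean rank for the rank-stable genes, coloured by the class of their coding region, and for the other genes with a mean rank of 3000 or better (grey); the black line is the ratio of the stages at equal rank. The stable genes lie along the line between -1.71 and -0.15, whereas the grey points fill the plot, whose axis ends at -4 and 4.

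The lowest log2 fold changes belonged to genes of high rank that placed better in oidia. CC1G_14225 had read counts of 1878 and 1443 in hyphae and of 3737 and 2550 in oidia, which is 239 ± 0.137 CPM in hyphae and 781 ± 89.4 CPM in oidia (SD, n = 2 each). Its log2 fold change was -1.71 (SE 0.06), and its oidia replicates differed more than those of CC1G_03852 and CC1G_09000, the members next to it in the order of mean rank, with SDs of 26.3 and 43.6 CPM in oidia. CC1G_02940 had 265 ± 5.78 CPM in hyphae and 788 ± 7.96 CPM in oidia (SD, n = 2 each), and its log2 fold change was -1.57 (SE 0.06). CC1G_09000 and CC1G_14370 had log2 fold changes of -1.54 and -1.47. All 4 genes had non-overlapping ranks, better in oidia, for instance 327 and 340 in hyphae against 252 and 272.5 in oidia for CC1G_09000. CC1G_02249, which ranked better in hyphae, had the smallest difference among the genes with a mean rank under 500, at 436 ± 5.27 CPM in hyphae and 619 ± 3.86 CPM in oidia (SD, n = 2 each) and a log2 fold change of -0.51 (SE 0.06).

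The other genes of the same rank span varied far more. Their log2 fold changes had a standard deviation over genes of 2.02, against 0.33 in the rank-stable genes, and a median of -0.50. A change of at least 2-fold was found in 32 of the 107 genes (29.9%) and in 57.7% of the 2478 others with TMM. The count depended on the scaling, with 20 of the 107 genes (18.7%) and 65.0% of the others with total counts, 10 (9.35%) and 57.1% with upper quartiles, and 0 and 54.5% with cyclic loess. The 64 genes that met the same spread limit but stood in the top 300 throughout had a median spread of 52.5 ranks. Their median log2 fold change was -1.29. Their range, from -5.01 to 0.82, was wider than that of the 107 genes, from -1.71 to -0.15. The rule bounded the rank differences of the 107 genes between libraries, so their narrow band is given only as a size.

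The sign of the difference turned with the scaling of the libraries in 105 of the 107 genes, between TMM and total counts. With total gene reads in place of TMM, 102 of the 107 genes were called higher in hyphae and 1 lower, and of all tested genes 75.1% were called higher and 15.7% lower. The median log2 fold change of the stable genes was then 0.73, and that of all 9866 tested genes moved to 1.79 from 0.25 with TMM. Relative to the median of all tested genes the stable genes were at -1.06 under each of 4 scalings by a constant per library, namely TMM, the size factors of DESeq2, upper quartiles and total counts. Such a constant shifts all genes by nearly the same amount, so this offset could hardly differ between them. It did differ with the genes tested under TMM, at -1.42 with no low-count filter and -0.62 with genes under a mean count of 100 left out. Cyclic loess, which removes a trend with abundance from each pair of libraries, placed them at a median of 0.14 (0.12 above the median of all tested genes). With it 28 were called higher (37.4% of all tested genes) and 4 lower (36.6%), and the other 75 were not called. As a group, the rank-stable genes cannot be said to be lower or higher in hyphae without naming the scaling.

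**Figure D4:**
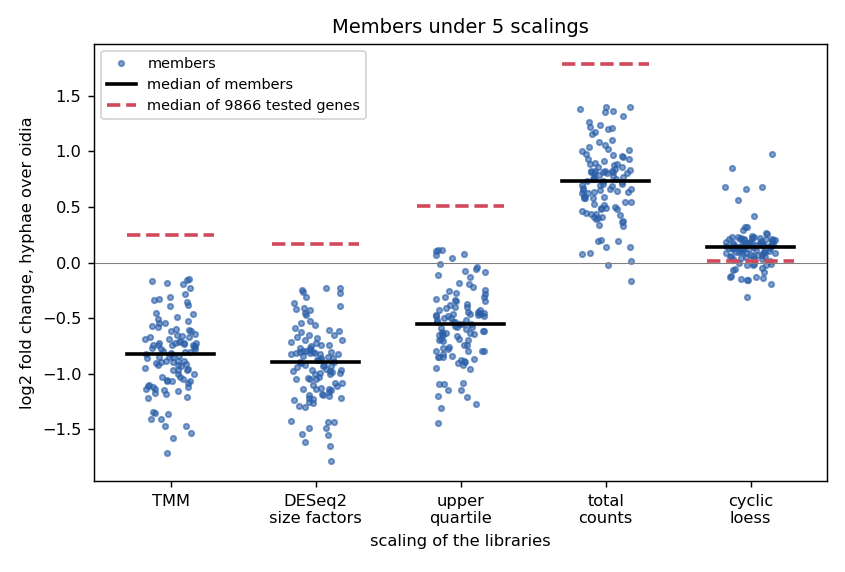
Log2 fold changes (hyphae over oidia) of the 107 genes under 5 scalings of the libraries, 1 point per gene, with the median of these genes (black bar) and of all 9866 tested genes (red dashes). The black bar stands at -0.82 with TMM, 0.73 with total counts and 0.14 with cyclic loess.

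Most single genes show the same turn. CC1G_05170, the gene with the narrowest spread, had a log2 fold change of -0.67 (SE 0.08) with TMM, 0.88 with total counts and 0.16 with cyclic loess. CC1G_07056 had -0.15 with TMM and 1.40 with total counts. CC1G_14225 did not turn, at -1.71 with TMM, -0.16 with total counts and -0.31 with cyclic loess. It was called lower with each of these. It was 1 of the 2 genes below 0 with total counts, the other being CC1G_02940 at -0.02. CC1G_08808 and CC1G_02249 stood out in the other direction with cyclic loess, at 0.85 and 0.98.

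The table also lists coding regions of genes, each classed as orthologous, paralogous or orphan, in the table's own terms. These rows were not used by the rule. A region could be tied to 106 of the 107 genes. The exception was CC1G_00474, with read counts of 998 and 825 in hyphae and of 1142 and 800 in oidia. Of the 106, 78 were orthologous (73.6%), 19 orphan (17.9%) and 9 paralogous (8.49%). The other genes of the same rank span had nearly the same shares, with 75.8%, 17.2% and 7.0%. Over all 13204 genes with a region the shares were 44.1%, 27.8% and 28.1%. The difference from all genes was thus shared by the abundant genes in general.

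Orphan members included genes from near the top of the group to its lower part, with mean ranks from 231 to 2352. CC1G_08808 lies in an orphan region at chr1:4024255-4026631 and CC1G_14225 in one at chr3:2220070-2220972 (positions are those of the table, and the sources used here give no genome build for it). CC1G_03247, with the shortest orphan region of the group (chr3:2661057-2661580, 524 bases), had read counts of 1855 and 1317 in hyphae and of 2505 and 2281 in oidia. CC1G_14495 had read counts of 1845 and 1403 in hyphae and of 2154 and 1746 in oidia, and its ranks of 343 and 349 in hyphae were better than those of 386 and 379 in oidia. The median log2 fold change was -0.74 in the orphan, -0.85 in the orthologous and -0.82 in the paralogous members, which differed less than the members within any of these classes.

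Paralogous members were CC1G_00228, CC1G_06678, CC1G_06961, CC1G_06510, CC1G_05170 and 4 others, with mean ranks from 272 to 1251. The treatment of reads that fit more than 1 copy is not stated, so the counts of these 9 genes are uncertain. CC1G_06961 (chr6:700675-706771) had read counts of 1634 and 1333 in hyphae and of 2012 and 1652 in oidia, and CC1G_06678 (chr5:260952-263420) had 1745 and 1342 in hyphae and 2308 and 1613 in oidia. CC1G_06510 (chr12:1419616-1422134) had read counts of 1256 and 936 in hyphae and of 1806 and 1412 in oidia. It ranked 554.5 and 590 in hyphae and 463.5 and 478 in oidia, the better places being those in oidia, whereas CC1G_00228 ranked better in hyphae. The gene of narrowest spread, CC1G_05170 (chr2:2035996-2039822), is also in this class.

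Genes of like rank differed widely in level per length of region. Length was taken from the start to the end of the region on the chromosome, with any introns inside it. Regions of the group spanned 292 to 9367 bases, with a median of 2053, against 1839 in the other genes of the rank span and 1440 in all genes with a region. Per kb of region the scaled level ran from 11.1 to 449 CPM in hyphae replicate 1 and from 13.0 to 1081 CPM in oidia replicate 1. CC1G_03247 was at the top, with 431 ± 24.5 CPM per kb in hyphae and 1154 ± 103 CPM per kb in oidia (SD, n = 2 each). CC1G_05143, picked after its values were seen as the longest region of the group (chr2:1968115-1977481), was lowest in both hyphae libraries, with 10.9 ± 0.200 CPM per kb in hyphae and 15.9 ± 0.731 CPM per kb in oidia (SD, n = 2 each). In oidia CC1G_02939 was lower still, at 13.0 and 12.7 CPM per kb. CC1G_14872 and CC1G_14495 had similar mean ranks, 384 and 364. Per kb they had 33.0 ± 1.5 and 184 ± 2.05 CPM in hyphae, and 73.6 ± 1.95 and 397 ± 0.914 CPM in oidia (SD, n = 2 each). When all genes with a region were ranked by reads per kb, 101 genes met the same limits, 33 of them from the group of 107.

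Reads in the coding region are a further readout of the same libraries. The coding-region row held a median of 99.5% of the gene's reads in each hyphae library, and 99.5% and 99.3% in oidia replicates 1 and 2. Shares above 100% occurred, and how reads were counted for gene and region rows is not stated. In 77 of the 106 genes the share was at least 90% in every library. It differed between stage means by over 10 percentage points in 14 genes (13.2%), with 11 lower and 3 higher in hyphae. The other genes of the rank span had such a difference in 14% of 2472 cases, with 231 lower and 116 higher in hyphae.

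Members with large differences in coding share were picked after their values were seen. CC1G_00051 had 54.1% and 53.0% of its reads in the coding region in hyphae against 80.6% and 80.7% in oidia. CC1G_03852 had 66.3% and 61.3% in hyphae against 89.7% and 91.3% in oidia. In these 2 genes the gene rows were nearly equal in raw reads (1058 and 873 in hyphae against 1066 and 891 in oidia for CC1G_00051), but the region rows were not (572 and 463 in hyphae against 859 and 719 in oidia). CC1G_09581, the gene with the shortest region (292 bases), went the other way, with 92.3% and 91.0% in hyphae against 58.0% and 59.6% in oidia. CC1G_02983 had shares above 100% throughout, with 115% and 115% in hyphae and 147% and 146% in oidia. Replicates of a stage lay close together in all 4 genes and the stages did not overlap, but with 2 libraries a stage an exact permutation test cannot give a two-sided p below 0.333. Library kit moved with stage, and its part in these shares was not tested.

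**Figure D5:**
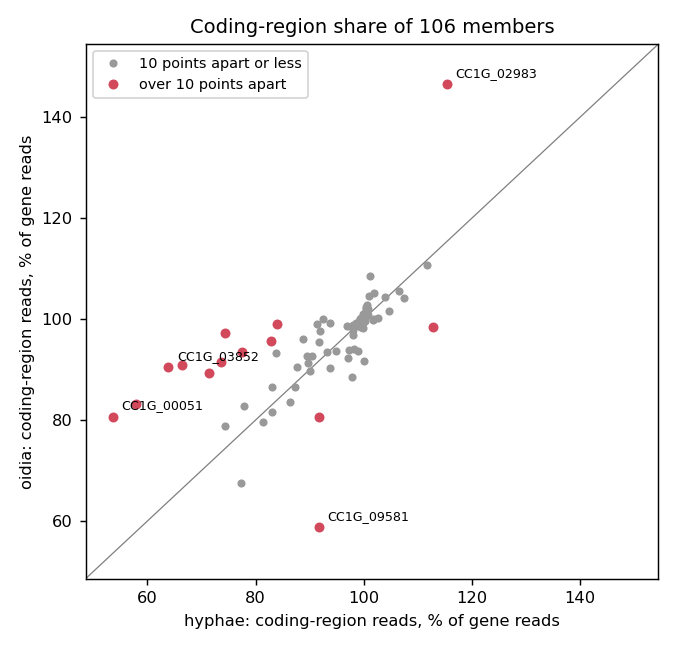
Reads of the coding-region row as a percentage of the reads of the gene row, mean of 2 libraries, in hyphae (horizontal axis) and oidia (vertical axis) for 106 genes, with the line of equality. Most genes lie near 100% in both stages, and 14 (red) differ by over 10 points, among them CC1G_09581 below the line and CC1G_00051, CC1G_03852 and CC1G_02983 above it.

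In a ranking added after the data were examined, by coding-region reads among the 13236 region rows, 68 of the 106 genes met the same limits, and the median spread of the 106 was 125.5 ranks. The other 38 fell outside the limits when coding-region reads were ranked.

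The genes lay on all 13 chromosomes. They made up 6.67% of the 195 genes of the rank span with a region on chromosome 8, 6.42% of 109 on chromosome 12 and 5.76% of 191 on chromosome 7. On chromosome 10 the share was 0.752% of 133, and on chromosome 9 it was 1.45% of 138. These shares rest on 13, 7, 11, 1 and 2 genes. Within 100 kb of the outermost listed position of a chromosome lay 5 of the 106 genes (4.72%), 3.11% of the other genes of the rank span and 6.85% of all genes with a region. Of the 107 genes 2, CC1G_00272 and CC1G_00346, overlap the span of another gene in the RefSeq annotation of assembly CC3. Since it is not stated whether counting used the strand, reads of such overlaps cannot be assigned to either gene.

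Of the 107 genes, 2 pairs were next neighbours, both on chromosome 8. CC1G_02940 and CC1G_02939 lie side by side at chr8:1329912-1331412 and chr8:1325212-1329519, but CC1G_02940 had a mean rank of 262 and CC1G_02939, with read counts of 384 and 287 in hyphae and of 248 and 193 in oidia, had 2450. Their log2 fold changes were -1.57 (SE 0.06) and -0.19 (SE 0.11). CC1G_12269 and CC1G_12270 form the other pair. CC1G_12269 had read counts of 984 and 766 in hyphae and of 1107 and 810 in oidia, and CC1G_12270 had 448 and 362 in hyphae and 332 and 258 in oidia. The 208 other genes next to a rank-stable gene included 50 with a mean rank of 3000 or better, whose median spread was 1045 ranks, against 1058 ranks for the 2525 genes of that span farther away. Of the tested neighbours 86.1% were called by edgeR in either direction, and of all tested genes 82.9%.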

How the data were processed

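RNA of 4 libraries was analysed, 2 of hyphae and 2 of oidia. The authors used Bowtie 0.12.7, TopHat and DESeq, per the submitters' processing notes. Neither the genome build, the annotation nor the counting program, with its treatment of strand and of reads that fit several places, is stated. Whole-number counts of reads were deposited for each gene and element, and these were used unchanged. Their deposited mean signal and their deposited ratio (fold) and log2 columns served only to check the direction of the comparison, and their deposited p-value column was used for 1 count. The readme calls the fold hyphae over oidia, but for all 107 members the values are oidia over hyphae, so directions come from the counts.

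Genes were ranked in pandas 2.3.3. The fit across all 13342 genes used edgeR 4.0.16 in R 4.3.3 (quasi-likelihood, TMM, filterByExpr, adjusted p under 0.05). All 107 members passed the filter. Standard errors come from the fold change and F, and are approximate. Alternatives were other scalings, DESeq2 1.42.0, cyclic loess with limma-voom (limma 3.58.1), other filters, a replicate block, each library left out, and other forms of the rank rule.

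Coding regions were tied to genes where a region lay within the span of exactly 1 gene of RefSeq assembly CC3 (11220 of 13236 regions share a start or an end with a gene there) and no other region did. RefSeq served for gene order and overlap only. It matched 13340 gene identifiers, and 2 did not match. It held no name other than the locus tag, so 0 of 22 keyword lists found a gene, among them those for markers of hyphae and oidia. The stages could not be checked against markers, and counts by pathway could not be given.

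Named genes were those with the 6 smallest spreads, the 4 best and worst mean ranks, the 4 highest and lowest log2 fold changes, up to 4 per class of region other than orthologous, up to 4 next to another member, and those nearest the limits. Members, lists and rules were chosen with earlier results of these data known. Replicates differed by more than sampling noise, with a chi-square per degree of freedom of 1.28 in hyphae (9555 genes) and 3.63 in oidia (8011 genes). Reads had no molecular identifiers, so counts are not counts of independent molecules.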

Additional observations from a re-analysis of the deposited data

How the results depend on the processing

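Calls over all genes moved by over 1.5 times with total counts (7407 higher and 1547 lower in hyphae, against 4455 and 3727 with TMM) and with genes under a mean count of 100 left out (2429 and 2230), where fewer genes were tested. Of the 107 genes, 102 were called higher and 1 lower with total counts, and 28 higher and 4 lower with cyclic loess. With TMM 0 were called higher, as all 107 log2 fold changes lay below 0, and DESeq2's Wald test gave 0 higher and 100 lower. Against a median log2 fold change of -0.82 with TMM, these genes had -0.90 with the size factors of DESeq2, -0.89 in its Wald test, -0.55 with upper quartiles, 0.73 with total counts, 0.14 with cyclic loess, -0.78 with no low-count filter and -0.51 with genes under a mean count of 100 left out. This median ranged from -0.83 to -0.79 with a library left out. Of the 107 genes, 93 were called lower with upper quartiles, where 3289 of all 9866 tested genes were. With genes under a mean count of 100 left out 91 were called lower, where 2230 of all 5130 tested genes were. Changes of at least 2-fold, found in 32 with TMM, were found in 10 under each of these. A spread of at most 100 ranks kept 54 genes and one of at most 200 gave 177, while ranking all rows of the table gave 51, of which 32 were among the 107. With ranks over 3 libraries 153 to 157 genes met the limits, since fewer libraries bind the spread.

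Named genes with the opposite sign with total counts numbered 26: CC1G_00160 (1.38), CC1G_00228 (0.79), CC1G_00346 (1.36), CC1G_00474 (0.67), CC1G_01040 (0.70), CC1G_02026 (0.38), CC1G_02249 (1.04), CC1G_02939 (1.35), CC1G_03247 (0.14), CC1G_03857 (0.49), CC1G_05170 (0.88), CC1G_06510 (0.20), CC1G_06678 (0.41), CC1G_06961 (0.45), CC1G_07056 (1.40), CC1G_08808 (0.91), CC1G_09000 (0.013), CC1G_09929 (1.17), CC1G_12269 (0.62), CC1G_12270 (1.21), CC1G_14370 (0.078), CC1G_14381 (0.50), CC1G_14495 (0.48), CC1G_14872 (0.39), CC1G_14967 (1.40) and CC1G_14998 (0.75). With cyclic loess they numbered 19: CC1G_00228 (0.66), CC1G_00474 (0.14), CC1G_01040 (0.32), CC1G_02249 (0.98), CC1G_02939 (0.16), CC1G_03857 (0.032), CC1G_05170 (0.16), CC1G_06678 (0.14), CC1G_06961 (0.15), CC1G_07056 (0.13), CC1G_08808 (0.85), CC1G_09929 (0.23), CC1G_12269 (0.084), CC1G_12270 (0.19), CC1G_14381 (0.066), CC1G_14495 (0.22), CC1G_14872 (0.11), CC1G_14967 (0.090) and CC1G_14998 (0.062). With upper quartiles they were CC1G_00160 (0.10), CC1G_00346 (0.079), CC1G_02939 (0.072), CC1G_07056 (0.11) and CC1G_14967 (0.11). With genes under a mean count of 100 left out they were CC1G_00160 (0.14), CC1G_00346 (0.12), CC1G_02939 (0.11), CC1G_07056 (0.16) and CC1G_14967 (0.16). CC1G_12270, at -0.34 with all libraries, was not called without hyphae replicate 1 (-0.27), nor with upper quartiles (-0.074) or genes under a mean count of 100 left out (-0.032). CC1G_09929, at -0.38 with TMM, was not called with upper quartiles (-0.11) or with that mean-count limit (-0.070). Keeping their sign, CC1G_02026 (-0.018), CC1G_03247 (-0.070) and CC1G_14370 (-0.13) lost their calls with cyclic loess and CC1G_02940 (-0.024) with total counts. Of the genes with the opposite sign, CC1G_00474, CC1G_03857, CC1G_05170, CC1G_06678, CC1G_12269, CC1G_12270, CC1G_14381, CC1G_14872 and CC1G_14998 also lost theirs with cyclic loess. CC1G_09000 and CC1G_14370 lost theirs with total counts. CC1G_02939, CC1G_07056 and CC1G_14967 were called with neither TMM nor cyclic loess. CC1G_00346 (-0.27) and CC1G_02939 (-0.27) gained a call of the same sign with the size factors of DESeq2. The cause of these changes was not tested.

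The replicate numbers are not said to pair the libraries, and replicate 1 minus replicate 2 correlated at -0.0094 across 9866 genes between stages. With the replicate number as a block, 101 of the 107 genes were called lower and 0 higher, and their median log2 fold change was -0.82. Of all 9866 tested genes, 3642 were then called lower and 4286 higher. With 2 libraries a stage, the smallest log2 fold changes, near -0.15 with a standard error of 0.11, were not called with TMM. That of CC1G_07056 was 0.11 with upper quartiles and 1.40 with total counts.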
